A study of Mus musculus with 135 samples.

Results

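The comparison is between AA mice after repeated social defeat (RSD) and AA mice without it, none of them treated with minocycline. Members were taken by their labels, disease state AA and no treatment, which gave 29 of the 135 libraries of the series. Cortex libraries came from 3 AA + RSD and 12 AA mice, and hippocampus libraries from the same 3 AA + RSD and 11 of the AA mice, so 15 mice in all. AA mice are male Townes mice that carry human globin genes with the normal adult allele in place of the mouse globin genes, and both groups share this replacement. For RSD, the study introduced a male aggressor into a cage of 3 resident males, 6 months of age. This was done for 2 h a day on 6 consecutive days. Brains were not taken right after the last session, but after behavioural tests that followed it in both groups. These tests included fear conditioning with foot shocks. Polyadenylated RNA of each tissue piece was sequenced and the reads on each gene were counted. Whether the 3 AA + RSD mice shared a cage is not given in the sources used here.

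Repeated defeat is a standard model of psychosocial stress in rodents. It activates the hypothalamic-pituitary-adrenal axis, and the corticosterone released acts in the brain through the glucocorticoid receptor, which drives target genes such as Fkbp5. In ordinary laboratory strains it is also known to activate microglia and to recruit monocytes to the vessels and borders of the brain.

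The libraries of mouse 9674, an AA + RSD mouse, were exchanged between the tissues before the comparison, because region markers went against their labels. Dsp, which marks dentate granule cells of the hippocampus, had 1916 reads in the library deposited as cortex of this mouse and 3 reads in the library deposited as hippocampus. In CPM (counts scaled to the total of reads on genes of each library), Dsp was 59.2 and 0.119, where the other cortex libraries ranged from 0.143 to 2.05 CPM and the other hippocampus libraries from 47 to 132 CPM. Rorb, a cortical layer marker, was 11.2 CPM in the library deposited as cortex, below the 23.5 to 45.8 CPM of the other cortex libraries. Ttr, the transthyretin gene of the choroid plexus, is no region marker in these pieces, since it ranged from 4.32 to 4101 CPM in the control hippocampus. It was 4950 CPM in the exchanged hippocampus library of 9674. In addition, over the 200 genes that best followed the mouse across tissues in the 13 other mice, the library pair of 9674 correlated at r = 0.916, and the cortex of 9674 correlated with the hippocampus of the other mice at -0.765 to 0.821 (a description over genes, which are not independent). After the exchange, all 29 libraries carried the markers of their tissue, as the plot of Dsp against Rorb shows.

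**Figure D1:**
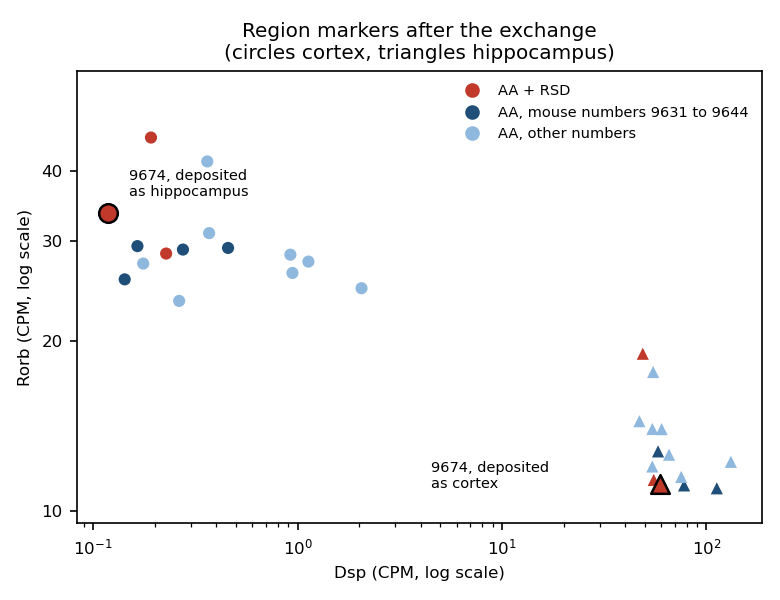
Levels of Dsp and Rorb in CPM (both axes logarithmic) in each of the 29 libraries, with circles for cortex, triangles for hippocampus and colours for the groups. The outlined libraries of mouse 9674 lie with the tissue to which they were moved, at 0.119 and 59.2 CPM of Dsp.

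Some libraries stand apart in other ways. The depth was 21015849 to 52501167 reads on genes in the cortex libraries and 12869149 to 62882249 in those of the hippocampus, the lowest being the hippocampus of AA + RSD mouse 9646. The mouse numbers fall into runs, and all 3 AA + RSD mice came from the run 9631 to 9674, together with 4 of the 12 AA mice in the cortex and 3 of the 11 in the hippocampus. The labels do not say what a run is. Reads outside annotated genes were 3.68 to 5.53% of all reads in the AA + RSD cortex, and up to 10.3% in the AA cortex, where the high values came from AA mice of other runs. The main results are therefore also given within the run 9631 to 9674. AA mouse 9631 goes against its genotype label, since it had 1944 reads of Hbb-bs in the cortex and 1570 in the hippocampus, where each other library had at most 7 and 7. Hbb-bs is an adult mouse globin gene that Townes mice should lack. AA mouse 5844 stood apart in red blood cell transcripts, which lay 2.78 (cortex) and 2.50 (hippocampus) above the AA mean on the log2 scale. Counts of called genes and the medians of lists were repeated without both.

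In the hippocampus, 6 genes were higher in AA + RSD than in AA mice (adjusted p under 0.05 by the quasi-likelihood test of edgeR with Benjamini-Hochberg adjustment), 0.0278% of the 21568 genes tested, and 0 genes were lower (0%). All 6 are immunoglobulin genes, the products of B cells and of the plasma cells that secrete antibody. They were Igkc, the constant segment of the kappa light chain, the kappa variable (V) segments Igkv12-46, Igkv2-109, Igkv9-120 and Igkv19-93, and the heavy-chain V segment Ighv8-8. Their mean level was under the limit set for named genes, and they are named here because they were the only genes called. Igkc had 531 reads in mouse 9643, 189 in 9646 and 48 in 9674, which is 16.5, 14.7 and 1.48 CPM. The 11 AA mice had from 2 to 58 reads, or 0.0587 to 1.46 CPM with a median of 0.225 CPM. The AA + RSD mice thus lay above the controls, but 9674 did so by less than its counting error (48 reads, exact Poisson 95% interval 35.4 to 63.6). Igkc was 4.60 higher on the log2 scale (SE 0.881, adjusted p = 0.0374). Over the group totals this is a ratio of 23.1, with an exact 95% counting interval of 19.6 to 27.3 that leaves out the spread between mice.

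V segments tell B-cell lineages apart, because a B cell and its descendants join the same V segment into each chain. The ends of the 5 called segments are shown, since the segments differ between mice. They are the last 120 bases of the V exon on the coding strand, from the GENCODE transcripts of GRCm39, with the codons of the conserved tyrosine-tyrosine-cysteine motif in capitals. The annotation release behind the deposited counts is not given, so the segment bounds used for counting may differ.
Igkv12-46 (chr6:69741507-69741626, minus strand, exon 2): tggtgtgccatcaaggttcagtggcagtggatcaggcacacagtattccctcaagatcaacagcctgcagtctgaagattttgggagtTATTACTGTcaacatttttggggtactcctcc
Igkv9-120 (chr6:68027321-68027440, plus strand, exon 2): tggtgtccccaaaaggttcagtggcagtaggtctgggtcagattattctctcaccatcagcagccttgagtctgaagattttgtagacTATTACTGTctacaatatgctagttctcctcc
Ighv8-8 (chr12:115257682-115257801, minus strand, exon 2): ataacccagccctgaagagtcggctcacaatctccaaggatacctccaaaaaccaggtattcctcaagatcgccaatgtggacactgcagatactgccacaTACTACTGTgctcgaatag
Igkv2-109 (chr6:68280023-68280142, plus strand, exon 2): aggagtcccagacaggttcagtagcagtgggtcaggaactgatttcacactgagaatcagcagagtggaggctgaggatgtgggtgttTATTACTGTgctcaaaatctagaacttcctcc
Igkv19-93 (chr6:68713281-68713400, minus strand, exon 2): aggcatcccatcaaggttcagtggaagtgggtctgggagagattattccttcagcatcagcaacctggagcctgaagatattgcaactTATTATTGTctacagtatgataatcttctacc
Of the windows of 85 bases (the read length) in these transcripts, 0% were shared with another transcript for Igkv2-109, Igkv19-93 and Igkv12-46, 6.7% for Igkv9-120 and 14.2% for Ighv8-8. Reads from shared windows map to several places and were not counted, so the counts of the last pair may miss some reads.

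Each V segment was carried by 1 mouse. Igkv12-46 had 59 reads in 9646, 2 in 9643 and 0 in 9674, against a single read in all AA mice. Igkv9-120 had 26 reads in 9646, 1 in 9643 and 0 in 9674, and Ighv8-8 had 11, 2 and 0 reads in the same order. For Igkv2-109 all 29 reads, and for Igkv19-93 all 17 reads, came from 9643. In the AA mice Igkv2-109 had 1 read, and Igkv9-120, Igkv19-93 and Ighv8-8 had 0. Against a floor of 3 reads over the AA group, the group totals were at least 49.6-fold higher for Igkv9-120, 31.2-fold for Igkv19-93 and 23.9-fold for Ighv8-8. With a single control read, the ratio was 336 (exact 95% counting interval 58.1 to 13500) for Igkv12-46 and 160 (26.5 to 6520) for Igkv2-109. The adjusted p of these 5 segments ran from 1.54e-05 (Igkv12-46) to 0.0358 (Ighv8-8), but the values come from different mice. Each segment also entered the test only through the mouse that led it. The filter on low counts asked for enough reads in 1 library, since the smallest AA group, AA + minocycline, held 1. With the leading mouse left out the segment was not tested, so its adjusted p gives no support apart from that mouse. The calls therefore describe a large value in 1 of 3 mice for each segment, not a level shared by the group.

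Summed over the 160 kappa V segments of the table, reads in the hippocampus numbered 244 in 9643, 117 in 9646 and 24 in 9674, against 1 to 25 in the AA mice. In CPM the AA + RSD mice had 7.6, 9.09 and 0.741 and the AA mice at most 0.667. In 9643, 29 kappa segments had reads and the leading one, Igkv1-110, held 22.1% of them. In 9646, only 6 segments had reads and Igkv12-46 held 50.4%. In 9674, Igkv8-30 held 79.2% of the 24 reads, and it also led in the cortex of that mouse with 9 of 12 reads. The 185 heavy V segments followed the same order, with 86, 40 and 14 reads against 0 to 12 in the AA mice. Of the heavy segments, 18 had reads in 9643, led by Ighv6-6 with 33.7% of the heavy reads. In 9646, 9 segments had reads, led by Ighv8-8 with 27.5%, and in 9674, 2 segments, led by Ighv6-3 with 92.9%. Thus 9643 held many kappa segments and 9646 few, but the leading heavy segment held no larger share in 9646 than in 9643. Segment numbers were not adjusted for depth, which was 32110276 reads on genes in 9643 and 12869149 in 9646. Mouse 9674 had few reads of either chain.

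Constant regions and the joining chain tell which antibody classes were present. Igha, the constant region of IgA, had 229 reads in the hippocampus of 9643, 8 in 9646 and 3 in 9674, against 0 to 11 in the AA mice. Ighg2b, an IgG constant region, had 89, 9 and 0 reads, against 0 to 3. Jchain, which links the units of secreted IgA and IgM, was 2.40, 3.57 and 0.402 CPM, against 0.2 to 1.64 CPM in the AA mice. Its log2 fold change of 1.61 (SE 0.558, adjusted p = 0.59) did not pass. Ighm, the IgM constant region, was 24.8, 39.8 and 13.4 CPM against 5.39 to 22 CPM and did not pass either (log2 fold change 1.01, SE 0.317, adjusted p = 0.59). By contrast, the B-cell surface markers Cd79a, Cd79b and Ms4a1 were thin in every hippocampus library. Cd79a had 4 to 6 reads in the AA + RSD mice and 4 to 20 in the AA mice, Cd79b 4 or 5 reads and 1 to 15, and Ms4a1, which encodes CD20, 0 to 2 and 0 to 3. Mzb1, a marker of plasma cells and marginal zone B cells, had 3, 0 and 0 reads in the AA + RSD mice and at most 6 in an AA mouse. Sdc1, a plasma cell marker that other brain cells use as well, was 1.48 to 1.70 CPM against 0.676 to 1.41 CPM.

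The cortex of the same mice held few reads of Igkc and the V segments, but not of Ighm, which was 18.5, 13.4 and 22.4 CPM there against 13.3 to 38.7 CPM in the AA cortex. Igkc was 0.352, 0.910 and 0.871 CPM in 9643, 9646 and 9674, against 0.0750 to 2.54 CPM in the 12 AA mice. The highest cortex was that of an AA mouse, 9838, with 101 Igkc reads, 86 kappa V reads and 46 heavy V reads. Among the 3 AA + RSD mice, the markers of meningeal fibroblasts moved with the immunoglobulin reads in the hippocampus. The 12 markers lay on average 1.15 and 0.858 above the AA mean (log2) in 9643 and 9646, and at -0.00434 in 9674. The AA mice lay between -0.698 and 0.670. For example, the collagen gene Col3a1 was 4.33, 4.51 and 1.48 CPM against 0.914 to 2.25 CPM (log2 fold change 1.07, SE 0.402, adjusted p = 0.59). Among the AA mice the order was another. Those with the most Igkc, 5844 and 9644 (1.46 and 1.15 CPM), lay at -0.493 and -0.334 in the mean of the 12 markers. Those highest in this mean, 9636 and 9839 (0.670 and 0.528), had 0.204 and 0.225 CPM of Igkc. The summed level of the meningeal markers was 87.8 to 195 CPM in the AA + RSD and 39.5 to 136 CPM in the AA hippocampus. Their part in the immunoglobulin reads was not tested. In a bulk piece, more cells of a type and more RNA per cell cannot be told apart.

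**Figure D2:**
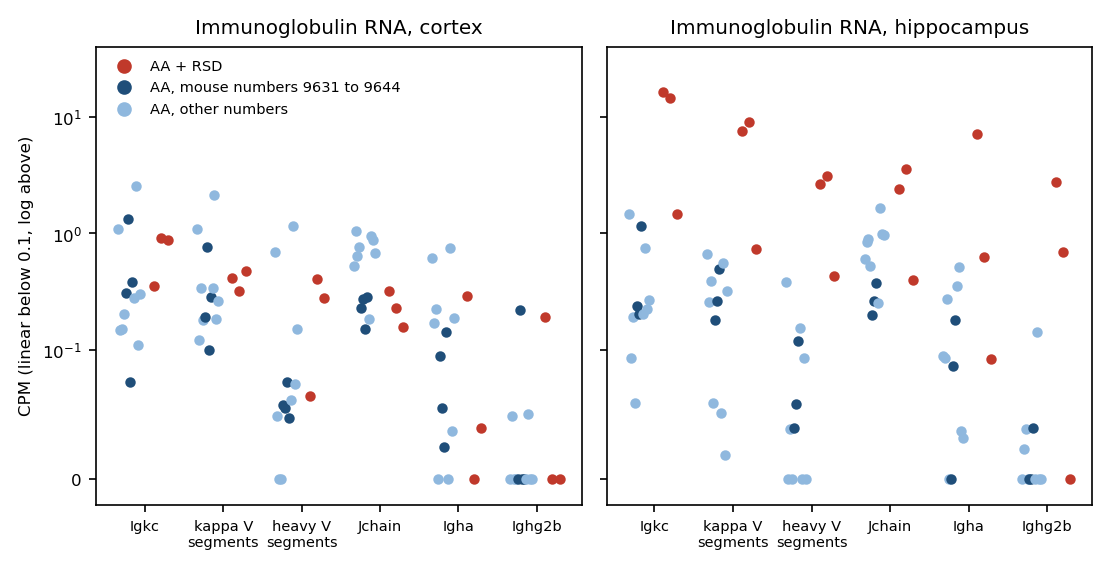
Immunoglobulin RNA by library in CPM (linear below 0.1, logarithmic above) for Igkc, the summed kappa and heavy V segments, Jchain, Igha and Ighg2b, in cortex (left) and hippocampus (right), with 1 point per mouse. In the hippocampus 9643 and 9646 lie at 16.5 and 14.7 CPM of Igkc, 9674 at 1.48 CPM is just above the highest AA mouse, and in the cortex the groups overlap.

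The 6 calls depended on the model and on single mice. The Igkc call was lost without 9643 (adjusted p = 0.586), without 9646 (0.245), and without any of 8 of the 11 AA mice (5845, 5899, 5900, 9631, 9636, 9836, 9839 or 9879, adjusted p 0.0792 to 0.0942), while its log2 fold change stayed between 4.16 and 5.12 over all mice left out in turn. The calls numbered 0 in a model of the AA and AA + RSD groups only. There the filter asked for reads in more libraries and the called V segments were not tested, while Igkc had an adjusted p of 0.153. Within the run 9631 to 9674 the calls also numbered 0. Most V segments were too thin to be tested there, and Igkc was 4.27 higher on the log2 scale (unadjusted p = 0.00155). DESeq2 gave 0 calls, and no adjusted p to 2 of the 6. With the run, or the share of reads outside genes, as a term there were 0 and 3 calls. Without 9643 there were 3 calls, without 9646 only 2, without 9674 there were 9, and without the AA mouse 9879 there were 3. In the fits without 9643 or 9646, the called segments that the omitted mouse led were not tested. Without 5844 and 9631 there were 6, among them 5 of the immunoglobulin genes.

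In the cortex, 0 of 21816 genes were higher (0%) and 0 were lower in AA + RSD mice by edgeR, and DESeq2 called 0 as well. At an unadjusted p under 0.05 there were 153 higher (0.701%) and 1439 lower genes (6.6%), 1592 in all, and DESeq2 gave 1658. The hippocampus had 410 higher (1.9%) and 1333 lower genes (6.18%) at this level, 1743 in all. The excess of lower genes did not hold with the run in the model. With the run as a term of the model, 1421 cortical genes had an unadjusted p under 0.05 and most of them, 1170, were higher. The median over all genes tested was -0.01 on the log2 scale in each tissue.

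The 10 cortical genes of smallest p had an adjusted p of 0.673 each, and 9 of them were lower. Tead3, a transcription factor of the Hippo pathway, was 0.704, 0.956 and 0.792 CPM in 9643, 9646 and 9674 against 1.13 to 2.92 CPM (median 1.86), so the groups did not overlap (log2 fold change -1.16, SE 0.291). Zfp691, a zinc finger gene, was 3.19 to 3.55 CPM against 3.76 to 5.57 CPM, and Scube2, which helps to release Hedgehog ligands from cells, was 0.991 to 1.23 against 1.25 to 4.18 CPM, again without overlap. The higher one, Fam198b, was 8.95, 9.10 and 7.21 CPM against 4.17 to 7.87 CPM (log2 fold change 0.68, SE 0.181). Akna, Xndc1, Ttf1, Nemp1 and Fam129c were lower by 0.58 to 1.62 on the log2 scale, with overlapping groups. Within the run 9631 to 9674 these 9 genes kept their direction, at 0.72 for Fam198b and at -0.21 to -0.81 for the others. This is no separate test, since they were picked by p with the same AA + RSD mice. Of all genes tested, 0.358% lay below all controls without overlap and 0.202% above. Ighg2c, an IgG constant region, behaved differently from the other immunoglobulin genes. It had 0, 2 and 0 reads in the AA + RSD cortex, and in the AA cortex either 0 to 3 reads (mice 5844, 9633, 9644 and 9838) or 81 to 305 reads (the 8 others). Hence the difference rests on a gene that is on or off among controls, and in the AA hippocampus it had at most 18 reads.

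The 10 hippocampal genes of smallest p that are not immunoglobulin genes did not pass either. Gpt2, the mitochondrial alanine transaminase, was 62.5, 63.1 and 67.7 CPM in 9643, 9646 and 9674 against 67.6 to 86.1 CPM (median 80.8), with a log2 fold change of -0.30 (SE 0.067, adjusted p = 0.175). Adgre1, which encodes the macrophage and microglial marker F4/80, was 12.9, 12.3 and 11.7 CPM against 4.50 to 10.9 CPM (0.72, SE 0.185, adjusted p = 0.547). The other 8 had an adjusted p of 0.59. Plek, a protein kinase C substrate of blood and microglial cells, was 15.6 to 21.4 CPM, above the 10.1 to 15.2 CPM of the AA mice. Insig1, which holds back sterol synthesis when sterols are plentiful and is itself a target of the sterol response, was 72.7, 81.2 and 71.3 CPM against 44 to 68 CPM (0.47, SE 0.133). It also lay above all controls in the cortex, at 81.3, 90.6 and 93.5 against 54.1 to 80.8 CPM (0.40, SE 0.129, adjusted p = 0.673). Mvd, an enzyme of the mevalonate pathway, was 20.6 to 23.2 CPM against 13.6 to 20.7 CPM (0.45, SE 0.126). Pwwp2a, a reader of histone variant H2A.Z, and Zcchc9 lay below all controls, while Taf15, Nab2 (a repressor of the immediate early factor Egr1) and Brinp3 overlapped them. Of all genes tested, 0.297% lay below all controls without overlap and 0.352% above. Within the run 9631 to 9674 all 10 kept their direction. This is no separate test, since they were picked by p with the same AA + RSD mice.

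Genes that glucocorticoids induce were lower rather than higher, though 0 of the 22 on the list passed in either tissue. In the cortex all 22 had a log2 fold change below 0, with a median of -0.23 where all genes had -0.01, and 4 of them (Fkbp5, Plin4, Hif3a, Map3k6) had an unadjusted p under 0.05. In the hippocampus 18 of 22 were below 0, with a median of -0.18, and 4 (Fkbp5, Plin4, Hif3a, Rasd1) had an unadjusted p under 0.05. Of all genes tested, 11162 of 21816 were below 0 in the cortex and 11131 of 21568 in the hippocampus. At that level of p, 6.6% and 6.18% of all genes were lower. Fkbp5, the co-chaperone that dampens the glucocorticoid receptor, was 29.6, 29.3 and 36.2 CPM in the cortex of 9643, 9646 and 9674 against 27 to 61.6 CPM (median 45.2). The log2 fold change was -0.48 (SE 0.169, adjusted p = 0.673). In the hippocampus it was 58.4, 66.7 and 68.6 CPM against 68.5 to 98.0 CPM (median 81.8), a log2 fold change of -0.32 (SE 0.0967, adjusted p = 0.59). Only the doubtful mouse 5844 had less in the cortex, with 27 CPM.

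Plin4, a lipid droplet protein, was 12, 6.51 and 13.6 CPM in the cortex against 7.96 to 92.8 CPM (median 35.4), a log2 fold change of -1.82 (SE 0.626). In the hippocampus it was 11.3, 10.3 and 11.3 CPM against 7.53 to 63.1 CPM (-1.62, SE 0.57). The AA mice thus differed widely among themselves, and 5844 was again the lowest. Hif3a, a hypoxia-inducible factor subunit, was 5.37 to 6.73 CPM in the cortex against 4.67 to 25.5 CPM, and 5.44 to 6.99 CPM in the hippocampus against 4.20 to 29.1 CPM. Rasd1, a small GTPase that dexamethasone induces, was 2.43, 2.46 and 2.97 CPM in the cortex, below the 3.01 to 5.76 CPM of all AA mice (-0.64, SE 0.387), and 26.3, 35.5 and 31.5 against 29.6 to 63.3 CPM in the hippocampus (-0.40, SE 0.183).

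The list kept its direction within the run 9631 to 9674 (cortex median -0.27, hippocampus median -0.22) and without 5844 and 9631 (-0.26 and -0.22). These fits hold the same 3 AA + RSD mice, and the list was chosen with earlier results of these data known, so they are no separate test. Against all AA mice, the 3 AA + RSD mice were lower without overlap for 1 of the 22 cortical values and for 0 of the 22 hippocampal ones (0.358% and 0.297% over all genes). Against the run, all 3 AA + RSD mice lay below all AA mice of the run for 6 of the 22 genes in the cortex, where 1.85% of all genes did, and for 7 in the hippocampus, where 3.66% did. Among these genes was Fkbp5, whose AA mice of the run had 37.4 to 52.3 CPM in the cortex and 81.8 to 88.2 CPM in the hippocampus. The difference of Hif3a in the cortex went from -1.15 over all mice to -0.27 within the run. As a mean over the list, the cortex of 9643 and 9646 lay 0.376 and 0.509 below the AA mean (log2), outside the controls, which reached -0.291, and 9674 lay within them at -0.0574. In the hippocampus all 3 AA + RSD mice lay within the controls. They were at -0.293, -0.223 and -0.0852, against -0.316 (mouse 5844) to 0.227. Without 9674 the cortical median was -0.42. Nr3c1, the glucocorticoid receptor, was 122 to 133 CPM in the AA + RSD cortex and 97.5 to 129 CPM in the AA cortex (0.21, SE 0.123), and 0 of the 12 genes of the corticosteroid receptor and CRH list passed, with medians of 0.14 and 0.23 that were 0.00606 and -0.05 within the run.

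**Figure D3:**
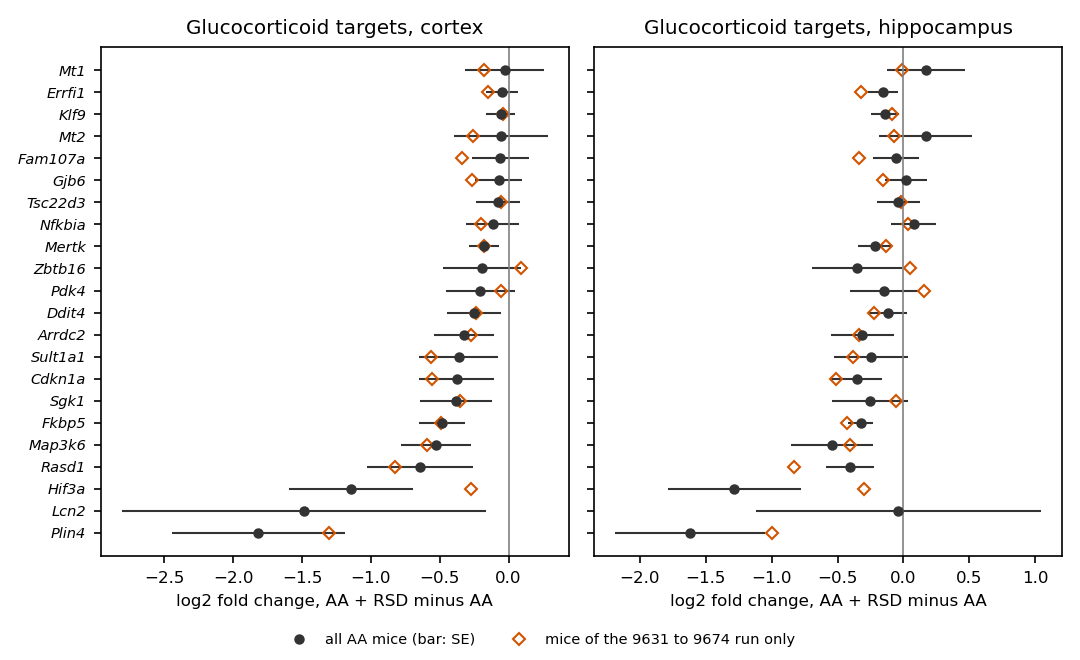
Log2 fold change of the 22 glucocorticoid targets between AA + RSD and AA mice in cortex (left) and hippocampus (right), with all AA mice (filled, bars are the SE) and within the mice numbered 9631 to 9674 (open). The filled points lie below 0 for 22 genes in the cortex and for 18 in the hippocampus.

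Immediate early genes, which neurons switch on within minutes of activity, showed the same direction in the cortex. Of 24 genes, 23 had a log2 fold change below 0, with a median of -0.45, and 4 (Nr4a1, Nr4a3, Fosb, Per1) had an unadjusted p under 0.05, but 0 passed. Of all genes tested in the cortex, 11162 of 21816 were below 0 and 6.6% were lower at that level. Nr4a1, an orphan nuclear receptor induced by activity, was 46.4, 57.8 and 56.4 CPM in 9643, 9646 and 9674, below the 59.2 to 203 CPM of all AA mice (median 99.7), a log2 fold change of -0.96 (SE 0.352, adjusted p = 0.673). Fosb, an AP-1 subunit, was 10.3, 14.4 and 9.70 CPM against 11.7 to 20.8 CPM (-0.50, SE 0.227), and Nr4a3 was 14.6, 19.6 and 12.3 CPM against 15.4 to 30 CPM (-0.41, SE 0.187). Per1, which is both a clock gene and activity-induced, was 65.8 to 75.2 CPM against 62.8 to 165 CPM (-0.46, SE 0.225). Within the run 9631 to 9674 the median was -0.39. As a mean over the list, 9646 at -0.0682 lay within the AA mice (-0.348 to 0.461), and 9643 and 9674 lay below them. In the hippocampus 16 of 24 were below 0, with a median of -0.14, which was -0.04 within the run.

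**Figure D4:**
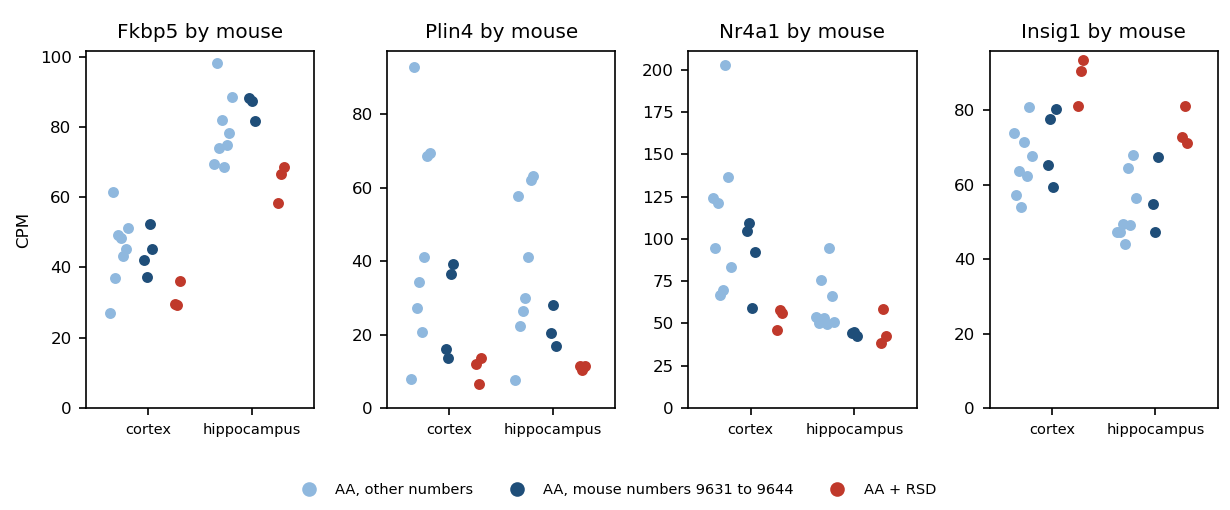
Levels of Fkbp5, Plin4, Nr4a1 and Insig1 in CPM (axes from 0) in each mouse, by tissue, with AA mice split by their numbers. The AA + RSD mice lie below the AA mice of the same run for Fkbp5 in both tissues, and above all AA mice for Insig1.

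Microglial genes were mostly higher over all mice, though not within the run of mouse numbers, and 0 of them passed. In the hippocampus 19 of 20 microglial markers had a log2 fold change above 0, with a median of 0.40, and 4 (Trem2, Olfml3, Siglech, Tyrobp) had an unadjusted p under 0.05. Of all genes tested there, 10437 of 21568 were above 0 and 1.9% were higher at that level. In the cortex 19 of 20 were above 0, with a median of 0.19. Within the run 9631 to 9674 the medians were -0.01 and -0.12. Trem2, a lipid receptor of microglia, was 16, 20.2 and 19 CPM in the AA + RSD hippocampus against 12.8 to 19.1 CPM in the AA mice of the run and 7.55 to 19.1 CPM in all AA mice. The summed level of the list was 784 to 854 CPM in the AA + RSD and 538 to 992 CPM in the AA hippocampus. Genes of activated microglia had medians of 0.33 in the hippocampus and 0.15 in the cortex, which were 0.03 and 0.01 within the run. Their largest log2 fold change in the hippocampus was 1.19. Spp1 (osteopontin), another of them, was 5.78 to 10 CPM there against 2.35 to 7.77 CPM (0.95, SE 0.344, adjusted p = 0.59). Lyz2, the lysozyme of monocytes and macrophages, was 15.8, 17.3 and 17.8 CPM in the AA + RSD hippocampus, above the 2.16 to 15.6 CPM of all AA mice (1.13, SE 0.335, adjusted p = 0.59). Within the run it was 0.49 higher. Ccr2, the receptor that draws monocytes into tissue, was 0.233 to 0.498 CPM against 0.0995 to 0.713 CPM. Of the interferon response genes 17 of 19 lay above 0 in the hippocampus, with a median of 0.36 that was 0.15 within the run. In the cortex their median of 0.08 was -0.15 within the run. Cytokines and chemokines, endothelial activation and blood-brain barrier genes had medians of 0.14, 0.03 and 0.09 in the hippocampus and 0.11, -0.07 and 0.04 in the cortex. Within the run these medians were -0.03, 0.19 and 0.05 in the hippocampus and -0.02, -0.12 and 0.05 in the cortex. Not one gene of these lists passed in either tissue.

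Transcripts retained in the nucleus, whose share depends on how much nuclear RNA a library holds, had the median farthest from 0 of all lists in each tissue. It was -1.19 in the cortex and -1.11 in the hippocampus over the 7 genes, none of which passed. Meg3, a long non-coding RNA of neurons, was 962 to 1220 CPM in the AA + RSD cortex against 754 to 6650 CPM. In the AA mice of the run 9631 to 9674 it was 754 to 2110 CPM, and within that run the list had medians of -0.26 and 0.03. The clock genes Per2 and Per3 behaved alike in the cortex, with -0.56 and -0.77 over all mice and -0.15 and -0.02 within the run. Mitochondrially encoded genes stood apart in 9643, whose mt-Co3 was 354 CPM in the cortex and 365 CPM in the hippocampus against 13.7 to 40.6 CPM in 9646 and 9674, although AA mice also reached 196 and 311 CPM. For choroid plexus genes in the hippocampus 1 library set the direction, and their median of 0.67 was -1.27 without 9674. Striatal markers in the cortex had a median of 0.51, which was -0.03 without 9646.

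The remaining lists are given by their medians. With the cortex first, myelin and oligodendrocyte genes had medians of 0.12 and 0.19, astrocyte genes 0.06 and 0.05, heat shock proteins 0.09 and 0.12, sphingolipid enzymes 0.04 and 0.00, and neurogenesis genes 0.07 and -0.09. Serotonin receptors had medians of 0.00 and -0.05, glutamate and GABA receptors 0.02 and -0.11, interneuron and neuropeptide genes 0.11 and 0.13, and clock genes -0.06 and -0.06. Within the run several of these medians had the opposite sign. In the hippocampus they were -0.10 for heat shock proteins, 0.14 for clock genes, -0.03 for myelin and -0.05 for astrocyte genes. Neurogenesis genes were at 0.06 there, sphingolipid enzymes at 0.09 and glutamate and GABA receptors at 0.02. In the cortex the sign turned for heat shock proteins (-0.07), astrocyte genes (-0.06) and monocyte and neutrophil genes (-0.04). Thalamic and habenular markers had -0.11 and 0.13, red blood cell genes -0.95 and -0.36 (0.17 and 0.30 within the run), monocyte and neutrophil genes 0.07 and 0.31, and T and B cell genes 0.03 and 0.55. Markers of the tissues themselves had medians of 0.14 (cortical neurons, cortex) and -0.28 (hippocampal neurons, hippocampus). Except for Igkc, 0 members of any list passed.

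**Figure D5:**
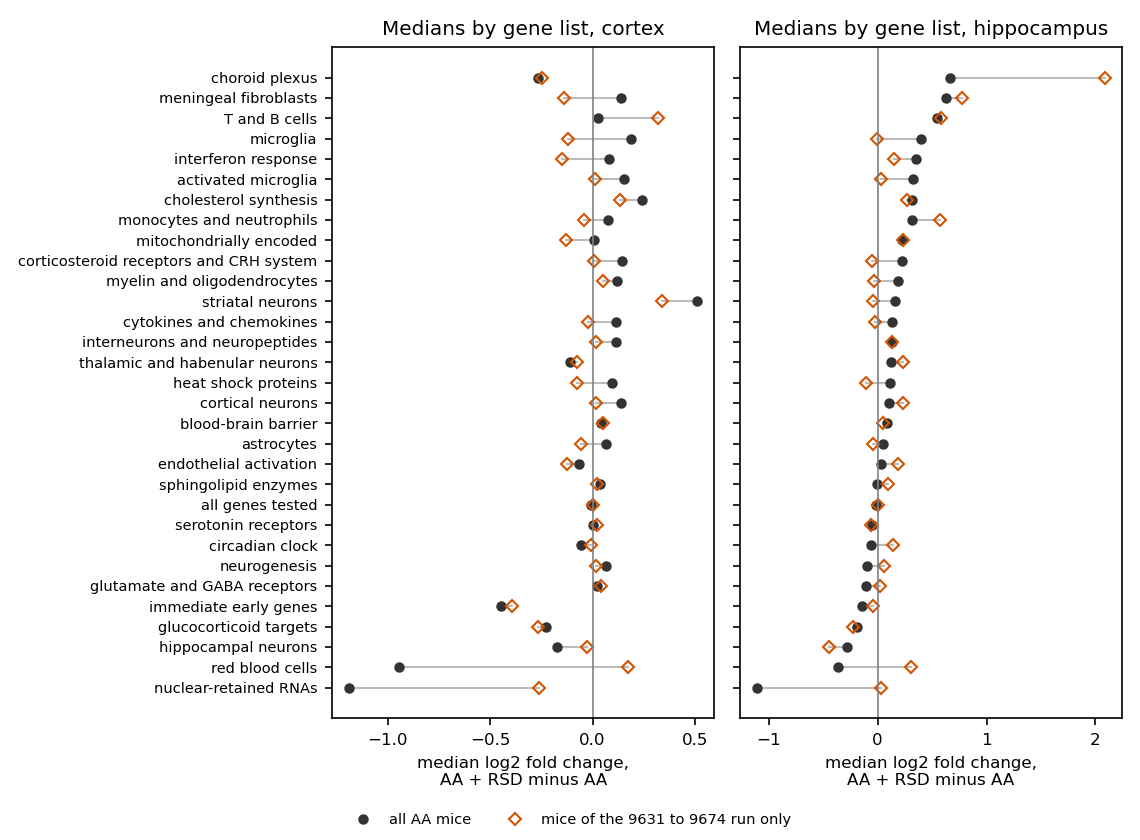
Median log2 fold change between AA + RSD and AA mice for each gene list and for all genes tested, in cortex (left) and hippocampus (right), with all AA mice (filled) and within the mice numbered 9631 to 9674 (open). Lists of microglia and nuclear-retained RNAs lie nearer to 0 within the run, and the glucocorticoid targets lie at -0.27 and -0.22 there.

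Whether the effect of RSD differed between the tissues was tested with the mouse as a block, in the 14 mice with both libraries. By edgeR, 0 of 20219 genes passed (0%), and 908 had an unadjusted p under 0.05 (4.49%). The smallest p was that of Jchain, whose hippocampus-minus-cortex difference was 2.71 greater in AA + RSD mice (log2, SE 0.411, adjusted p = 0.0676). Igkc and Igha were also among the 5 genes of smallest p, at 3.59 (SE 0.738) and 4.92 (SE 1.04), with adjusted p of 0.617 and 0.781. The pair of neuronal genes among the first 5 went the other way. Acan, the perineuronal net proteoglycan aggrecan, was 6.65, 7.6 and 7.41 CPM in the AA + RSD cortex against 3.48 to 6.78 CPM, and 5.33, 5.67 and 4.94 CPM in the hippocampus against 4.68 to 11.2 CPM. Its difference was -0.94 (SE 0.189, adjusted p = 0.617). Cacna1a, the pore of P/Q-type calcium channels, had -0.40 (SE 0.0804, adjusted p = 0.617). Without 9674, Jchain and Igkc passed (adjusted p = 0.00758 each), and without 9643 or 9646 no gene did.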

How the data were processed

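Per tissue, the authors deposited counts of reads per GENCODE gene made during alignment, as whole numbers that were not normalized. Alignment was by STAR, and the build was GRCm39. Directional libraries of polyadenylated RNA were sequenced as single reads. The STAR version, annotation release and strand setting of the counts are not given in the sources used here. Summary lines that name no gene held 16.6 to 39.2% (cortex) and 19.5 to 51.7% (hippocampus) of the reads, multimapping reads included, and were used in no total or test.

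The analysis used edgeR 4.0.16 under R 4.3.3. Low genes were dropped by filterByExpr with the groups (count of at least 10, total of at least 15). The smallest group, AA + minocycline, held 1 library per tissue, so the count was needed in 1 library only. After TMM scaling, AA + RSD was compared with AA by the quasi-likelihood test in a model of all AA groups (34 cortex and 33 hippocampus libraries). The study's methods name edgeR and a model of all samples of a genotype in a tissue, but not the test or the scaling. The interaction of tissue and RSD had the mouse as a block. Titles give cortex and hippocampus of a mouse the same number, and their deviations from the group means correlated at 0.145 to 0.804 in the 14 mice. CPM are plain counts scaled to the reads on genes of the library. The code was tested on simulated data.

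Left out were 1 sample whose labels name different tissues, 3 columns that match no sample, and 4 libraries whose counts are identical to those of another group. Separate titles are taken as separate mice. Precision is set by 3 AA + RSD mice, and intervals on reads cover counting error only. Named genes are, per tissue, those of largest change among up to 10 called in each direction whose mean log2 CPM is 1 or more, else the 10 of smallest p, up to 4 members of a list by p, the 5 of smallest p for the tissue difference, and Ttr and Dsp. Members and lists were chosen with earlier results of these data known. Alternatives were the tables as labelled, each mouse left out, 5844 and 9631 left out, a model of the 2 groups, the number run as a term or alone, the share of reads outside genes as a term, RLE factors, DESeq2 1.42.0, a likelihood-ratio test, no filter, the identical libraries kept, no block, and, added after seeing the data, robust dispersions.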

Additional observations from a re-analysis of the deposited data

How the results depend on the processing

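The cortex had 0 calls under every alternative but the tables as labelled, where mouse 9674 puts its hippocampus among the cortex libraries (187 genes called). The hippocampus had 256 calls as labelled, 14 with no filter on low counts, 3 with the share of reads outside genes as a term, 3 by the likelihood-ratio test, and 0 with DESeq2, with the run of mouse numbers as a term, within the run 9631 to 9674, or in a model of the 2 groups only. Within the run and in the model of the 2 groups, the called V segments fell below the filter and were not tested. Leaving out a mouse at a time gave 2 (without 9646) to 9 calls (without 9674), and 3 without 9643 or without the AA mouse 9879. Leaving out 5844 and 9631 together gave 6, of which 5 were the same genes. The cause of these changes was not tested. In the paired analysis with the mouse as a block, 0 genes differed between the tissues, as without the block, and leaving out each AA + RSD mouse gave 0 to 2.

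The direction of the named genes turned in 7 cases. With the tables as labelled it did so for Rasd1 (1.59) and Nr4a3 (0.54) in the cortex and Cacna1a (0.0605) in the tissue difference. In the hippocampus, Meg3 was 0.00837 with the run as a term and 0.0315 within the run, and Snhg11 0.0473 and 0.0712. The medians of lists moved by more than the spread of the AA mice in 41 cases and by less in 1549. With 12869149 reads in the hippocampus of 9646, V segments with a few reads are at the limit of detection.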

Other observations

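Enzymes of cholesterol synthesis, a list made after the values of Mvd and Insig1 were seen and therefore no independent evidence, were higher in both tissues. Of its 22 genes, 19 had a log2 fold change above 0 in the cortex (median 0.24, 9 with an unadjusted p under 0.05) and 18 in the hippocampus (median 0.32, 12 with an unadjusted p under 0.05), and 0 passed the adjustment. Of all genes tested, 10648 of 21816 were above 0 in the cortex and 10437 of 21568 in the hippocampus. At that level of p, 0.701% and 1.9% of all genes were higher. Hmgcs1, which makes the precursor of mevalonate, was 384, 372 and 343 CPM in the cortex of 9643, 9646 and 9674 against 244 to 369 CPM, and 321, 233 and 285 against 161 to 264 CPM in the hippocampus. Nsdhl, a later enzyme of the pathway, was 23.4, 26.7 and 27.6 CPM in the hippocampus against 17.7 to 25.2 CPM. As a mean over the list, the AA + RSD mice lay 0.235, 0.243 and 0.348 above the AA mean (log2) in the hippocampus, above the highest AA mouse at 0.214, and at 0.2, 0.279 and 0.294 in the cortex, where an AA mouse reached 0.257. Within the run 9631 to 9674 the medians were 0.13 and 0.27.

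Immunoglobulin RNA in the hippocampus was not limited to AA mice after RSD. Igkc ranged from 0.368 to 10.2 CPM in 7 SS mice without RSD, from 0.279 to 9.31 CPM in 6 SS + RSD mice and from 0.0371 to 5.70 CPM in 18 AA + RSD + minocycline mice. Their medians were 0.870, 0.829 and 0.28 CPM. In 4 SS + minocycline mice Igkc ranged from 0.202 to 4.86 CPM with a median of 1.2 CPM, and in 14 SS + RSD + minocycline mice from 0.119 to 7.62 CPM with a median of 0.557 CPM.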
